A study of Mus musculus with 10 samples.

Results

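The transcription factors that set and maintain the microglia and macrophage lineage were followed through mouse retina and optic nerve, with and without an optic nerve crush. The genes form a list of named factors: Spi1, Irf8, Runx1, Cebpa, Cebpb, Mef2a, Mef2c, Sall1 and Mitf, 9 of the 52181 gene entries in the deposited table. Each had 1 entry and at least 1 UMI (unique molecular identifier, a tag that marks a single captured RNA molecule). The cells were captured with droplet 3′ single-cell RNA sequencing and are labelled as microglia and macrophages. All mice were wild type, of the strain labelled 129S1/SvlmJ, of both sexes and 10 weeks old. The crush, a lesion of the axons of retinal ganglion cells, had been made at 8 weeks of age, 2 weeks before collection. Every sample, injured or not, also carried a postnatal day label that equals 8 weeks and not 10 weeks. The 4 groups were injured retina, uninjured retina, injured optic nerve and uninjured optic nerve. The 4 injured retina samples stood in the table as 2 pools (samples 1 and 2, and samples 3 and 4), so that each group had 2 libraries. The labels do not say how many animals gave a sample, and p-values therefore measure the spread between libraries.

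Spi1 encodes PU.1, an ETS factor without which macrophages and microglia do not form. IRF8 binds DNA together with PU.1 and is needed for microglial maturation, and RUNX1 acts upstream of Spi1 in blood and yolk sac progenitors. C/EBPα drives myeloid differentiation, whereas C/EBPβ is better known for inducing inflammatory genes in activated macrophages. The MEF2 factors act with PU.1 at the enhancers of microglia, where MEF2C restrains inflammatory responses. SALL1 is a zinc finger repressor found in microglia and in few other macrophages. MITF belongs to the MiT/TFE family of basic helix-loop-helix factors, which bind E-boxes of lysosomal genes and also govern melanocytes and osteoclasts.

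Promoter windows, from 250 bases before to 50 after an annotated start, were found in the RefSeq table (GRCm38.p6) for 8 of the 9 genes. The most upstream windows of Cebpa and Sall1 are shown because these 2 genes fell in injured retina, and that of Mitf because it stood higher in every injured library. The Cebpa window is chr7:35119043-35119342 on the plus strand, the Sall1 window is chr8:89044113-89044412 on the minus strand, and the Mitf window is chr6:97806808-97807107 on the plus strand. Capitals mark motif matches on either strand.
Cebpa: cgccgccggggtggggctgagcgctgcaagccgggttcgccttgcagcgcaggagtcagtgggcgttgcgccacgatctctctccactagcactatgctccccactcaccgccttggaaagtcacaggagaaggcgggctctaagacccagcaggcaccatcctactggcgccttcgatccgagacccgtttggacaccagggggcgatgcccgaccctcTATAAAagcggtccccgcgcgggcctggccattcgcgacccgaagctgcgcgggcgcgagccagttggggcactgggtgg
Sall1: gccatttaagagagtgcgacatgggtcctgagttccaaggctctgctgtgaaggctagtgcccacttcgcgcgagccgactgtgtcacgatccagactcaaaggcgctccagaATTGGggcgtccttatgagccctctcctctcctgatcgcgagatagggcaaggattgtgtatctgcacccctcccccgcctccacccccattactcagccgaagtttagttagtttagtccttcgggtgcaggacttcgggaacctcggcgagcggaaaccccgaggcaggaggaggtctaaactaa
Mitf: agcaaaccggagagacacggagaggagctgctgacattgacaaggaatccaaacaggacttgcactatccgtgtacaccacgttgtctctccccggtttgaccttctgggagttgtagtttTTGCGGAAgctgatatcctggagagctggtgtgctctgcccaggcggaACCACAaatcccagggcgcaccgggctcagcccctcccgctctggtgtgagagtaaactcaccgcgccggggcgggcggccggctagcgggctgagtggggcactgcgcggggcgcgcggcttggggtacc
The motifs searched on both strands were GAGGAAG (PU.1), TTGCNNAA (C/EBP), TGTGGT (RUNX), CACGTG (E-box of MiT/TFE factors), TGANTCA (AP-1), TATAAA and CCAAT, together with the MEF2 and IRF motifs. The Cebpa window held only TATAAA, beginning 30 bases before the start, and 13.6% of 32851 windows of this length held that motif. The Sall1 window held only a CCAAT match, as did 37.4% of windows. The Mitf window held 1 C/EBP match, found in 10.8% of windows, and 1 RUNX match, found in 16.8%. A match of letters is a description and shows no binding.

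The table held 1168 cells with 12 to 682 cells and 56838 to 5234954 UMIs per library. The middle cell held 1078 UMIs in the shallowest library, injured nerve library 1, and 12989 UMIs in the deepest, the injured retina pool of samples 1 and 2. Retina cells were deposited as UMI counts and optic nerve cells as ln values, from which counts were recovered. A final stretch of 24183 entries was empty in uninjured retina, and that gap cannot be told apart from injury in retina or from tissue among uninjured libraries. All 9 genes lay before that stretch. T-like cells made up 20.2% and 42.1% of the 2 injured retina pools and 0 of the uninjured retina cells. Oligodendrocyte-like cells made up 9.59% and 6.60% of injured nerve libraries and 26.2% and 14.3% of uninjured nerve libraries. The 11 microglia markers together gave 5425 to 17277 CPM (UMIs of a gene per 1e+06 UMIs of the library), and 8 of the 9 factors were detected in all 8 libraries. There were 2 barcodes that each occurred in 2 cells, and no doublet caller was run.

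**Figure D1:**
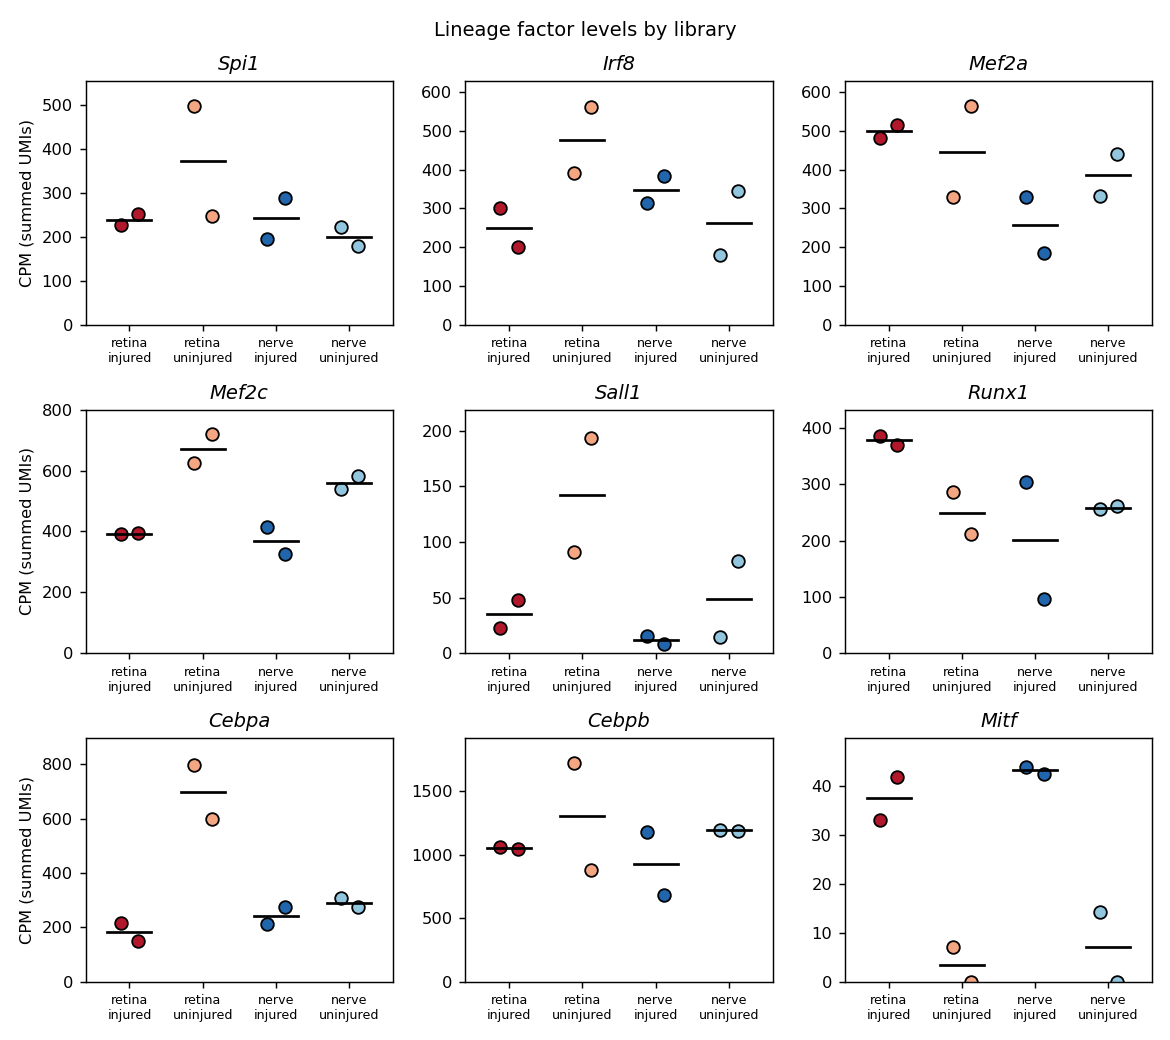
Level of each factor in CPM of summed UMIs (vertical axes start at 0) in each library, with 2 libraries per group and a bar at the group mean. Cebpa stood at 151 and 215 CPM in injured retina against 598 and 798 CPM in uninjured retina, and Mitf stood higher in all 4 injured libraries than in all 4 uninjured ones.

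The question in retina was how macrophages and microglia differed 2 weeks after the crush. Cebpa and Sall1 fell in injured retina, and none of the factors tested rose. This was 2 of the 8 factors tested by edgeR's quasi-likelihood test on UMIs summed per library. It stood against 19.7% of the 3312 genes tested in either direction, 9.72% lower and 9.99% higher. Mitf did not pass the filter on low counts and was not among the 8, and its values are given below. The median log2 fold change was -0.74 over the 8 factors and 0.07 over all genes tested. Sums over cells cannot tell apart fewer cells that carry a factor and less of its RNA per cell.

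Cebpa, which encodes the myeloid differentiation factor C/EBPα, had 215 and 151 CPM in the 2 injured pools, against 798 and 598 CPM in the uninjured libraries. The mean was 183 ± 44.9 CPM in injured retina and 698 ± 142 CPM in uninjured retina (SD, n = 2 each), and the groups did not overlap. How many of all genes lay apart in this way, with 2 libraries per group, was not counted here or for any factor below. The log2 fold change was -1.92 ± 0.30 (SE, edgeR adjusted p = 0.0015). T-like cells held 0 Cebpa UMIs, and the summed T and NK cell markers stood at 306 and 753 CPM in injured retina against 7.0 and 0 CPM in uninjured retina. With only macrophage and unnamed clusters kept, Cebpa had 233 and 178 CPM in injured retina against 818 and 598 CPM in uninjured retina. The log2 fold change was then -1.72 (edgeR adjusted p = 0.0023), in a fit that called 9.16% of genes lower. Without each retina library in turn it lay between -2.14 and -1.34, and the call held each time.

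Its relative Cebpb, the inflammatory C/EBP factor, had 1061 and 1042 CPM in injured retina against 1723 and 880 CPM in uninjured retina. The injured values lay between the uninjured ones. The log2 fold change of -0.35 ± 0.34 did not pass (edgeR adjusted p = 0.51). It depended on which uninjured library was kept, with 0.58 (adjusted p = 0.25) without library 5 and -0.77 (adjusted p = 0.032) without library 6.

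Sall1, the microglial zinc finger repressor, was sparse, with 32 and 15 UMIs in injured retina and 13 and 11 UMIs in uninjured retina. These were 22.5 and 48.2 CPM in injured retina against 91.0 and 194 CPM in uninjured retina. The log2 fold change was -2.06 ± 0.52 (edgeR adjusted p = 0.019), and -1.84 (adjusted p = 0.036) without the other cell types. The call was lost without the injured pool of samples 1 and 2, at -1.29 (adjusted p = 0.11), and DESeq2, which called 10.3% of genes, gave -1.98 (adjusted p = 0.051).

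The MEF2 factors did not pass. Mef2c, a microglial enhancer factor, had 391 and 396 CPM in injured retina against 623 and 721 CPM in uninjured retina. Its log2 fold change was -0.74 ± 0.25 (edgeR adjusted p = 0.058). limma on mean ln values over all 8 libraries, where 5.21% of 5298 genes were lower and 11.8% higher, gave a difference of -0.85 ln units (adjusted p = 0.014). Its paralogue Mef2a had 483 and 515 CPM in injured retina, between the 329 and 563 CPM of uninjured retina, and a log2 fold change of 0.25 ± 0.28 (edgeR adjusted p = 0.55).

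The partners of the PU.1 network also stayed short of the threshold. Spi1 had 227 and 251 CPM in injured retina against 497 and 246 CPM in uninjured retina, so that the groups overlapped and library 5 stood alone. Its log2 fold change was -0.75 ± 0.34 (edgeR adjusted p = 0.14). It was 0.27 (adjusted p = 0.76) without uninjured library 5 and -1.13 (adjusted p = 0.012) without library 6, and limma gave -0.63 ln units (adjusted p = 0.031). Irf8, the partner of PU.1, had 301 and 199 CPM in injured retina against 392 and 563 CPM in uninjured retina. Its log2 fold change was -0.83 ± 0.29 (edgeR adjusted p = 0.066). Runx1, the progenitor factor, had 386 and 370 CPM in injured retina against 287 and 211 CPM in uninjured retina. Its log2 fold change was 0.55 ± 0.29 (edgeR adjusted p = 0.20).

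**Figure D2:**
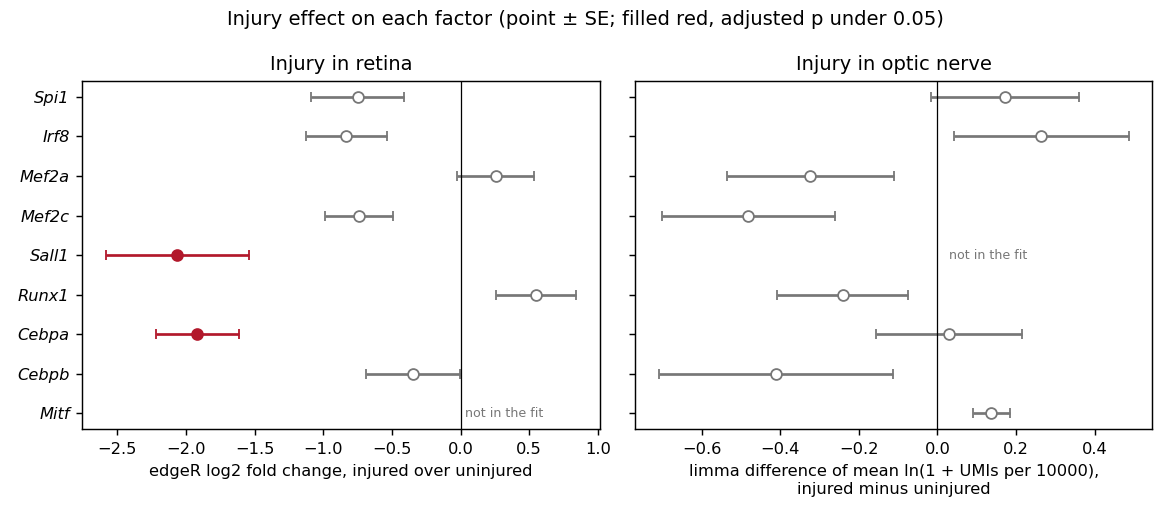
Injury effect on each factor with its SE, as a log2 fold change from edgeR in retina (left, 4 libraries) and as a difference of mean ln values from limma in optic nerve (right, fitted over 8 libraries); positive values are higher after injury, and filled red points passed an adjusted p of 0.05. Cebpa at -1.92 and Sall1 at -2.06 passed in retina, and no factor passed in nerve.

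In optic nerve, the lesioned tissue itself, no factor passed the test of injury. limma on mean ln values called 30 of 5298 genes (0.566%) and 0 of the 8 factors tested there, of which 2 had an unadjusted p under 0.05. edgeR on the recovered counts called 58 genes (1.09%) and none of the 8 factors. Cebpa had 213 and 273 CPM in injured nerve against 307 and 273 CPM in uninjured nerve. Spi1 had 195 and 289 CPM in injured nerve against 222 and 178 CPM in uninjured nerve, and Irf8 had 314 and 384 CPM against 179 and 345 CPM there. The ranges of Spi1 and Irf8 overlapped, and those of Cebpa lay within 1 CPM of each other.

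Mef2c had 414 and 326 CPM in injured nerve against 538 and 582.5 CPM in uninjured nerve, so that both injured libraries were lower. Over both tissues, every injured library had less Mef2c than every uninjured one, as did 2.96% of the 5298 genes; Cebpa did so too, by under 1 CPM. The difference was -0.48 ± 0.22 ln units (limma adjusted p = 0.57, unadjusted p = 0.042). Mef2a had 329 and 185 CPM in injured nerve against 333 and 440 CPM in uninjured nerve. Runx1 had 304 and 96.3 CPM in injured nerve against 256 and 262 CPM in uninjured nerve, and Cebpb had 1173 and 684 CPM against 1193 and 1189 CPM there. Injured library 3, which held 682 of the 1168 cells, was the lowest of the 4 nerve libraries for each of these 4 factors. Sall1 had 15.7 and 8.02 CPM in injured nerve against 14.2 and 83.2 CPM in uninjured nerve, from 5, 42, 5 and 7 UMIs, and was too sparse to enter the fit.

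Mitf, the lysosomal and melanocyte factor, was higher in the injured libraries of both tissues. It had 33.1 and 41.8 CPM in injured retina and 43.9 and 42.4 CPM in injured nerve. It had 7.0 and 0 CPM in uninjured retina and 14.2 and 0 CPM in uninjured nerve. Mitf in every injured library exceeded that in every uninjured one, as did 3.27% of the 5298 genes. The counts were 47 and 13 UMIs in injured retina, 1 and 0 UMIs in uninjured retina, 14 and 222 UMIs in injured nerve, and 5 and 0 UMIs in uninjured nerve.

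The ratio of summed CPM of Mitf was 6.92 in retina (exact 95% interval 1.19 to 278) and 3.70 in nerve (1.56 to 11.5), and these intervals cover counting error only. With 0 of 12 cells in uninjured retina library 6 and 0 of 28 in uninjured nerve library 4, shares of up to 25% and 10.7% of cells with a UMI remained possible. In nerve the difference was 0.14 ± 0.05 ln units (limma adjusted p = 0.35, unadjusted p = 0.010). In retina Mitf did not pass the filter on low counts. Without that filter edgeR called 5.86% of genes and gave a log2 fold change of 2.97 for Mitf (adjusted p = 0.087), with a median of 0.52 over all genes, and limma over all 8 libraries gave 0.17 ln units (adjusted p = 0.022). After each cell was thinned to 1000 UMIs, 2.98% and 3.6% of cells in injured retina held a Mitf UMI, against 0.881% and 0% in uninjured retina. The thinned shares were 4.66% and 4.50% in injured nerve against 0.936% and 0% in uninjured nerve.

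The interaction asked whether the injury effect differed between nerve and retina. limma called 297 of 5298 genes (5.61%, and 1.7% higher in nerve) and 1 of the 8 factors, Cebpa. The injury effect on Cebpa was higher in nerve than in retina by 1.05 ± 0.26 ln units (adjusted p = 0.026). The mean ln value of Cebpa was 0.62 in injured nerve and 0.60 in uninjured nerve, against 0.63 in injured retina and 1.65 in uninjured retina. Uninjured retina thus stood apart from the other groups. The call was lost without the injured pool of samples 3 and 4 (adjusted p = 0.11), injured nerve library 3 (0.13), and uninjured nerve libraries 2 (0.070) and 4 (0.11). It was also lost in fits that called fewer genes. These were thinned cells (0.529% called, Cebpa 0.99, adjusted p = 0.15), edgeR (1.83%, log2 value 1.77, 0.11), limma on log2 CPM (0.755%, 1.74, 0.17), no filter on low values (0.235%, 1.05, 0.095) and without the other cell types (3.45%, 0.66, 0.16).

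Spi1, Irf8 and Runx1 also had an unadjusted p under 0.05 for the interaction. Spi1 gave 0.80 ± 0.27 (limma adjusted p = 0.084), Irf8 gave 0.84 ± 0.31 (adjusted p = 0.12) and Runx1 gave -0.55 ± 0.24 (adjusted p = 0.17). Spi1 passed without uninjured retina library 6, at 0.99 (adjusted p = 0.047), and Irf8 without uninjured retina library 5, at 1.15 (adjusted p = 0.031). Runx1 passed without the other cell types, at -0.94 (adjusted p = 0.040), where 2.74% of genes were called lower.

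Between uninjured tissues, 4 of the 8 factors were lower in optic nerve than in retina and none was higher. limma called 10% of the 5298 genes, of which 94 were higher and 437 (8.25%) lower in nerve. The comparison shares its uninjured libraries with the tests of injury. Cebpa had 307 and 273 CPM in uninjured nerve against 798 and 598 CPM in uninjured retina, and fell by 1.05 ± 0.18 ln units (adjusted p = 0.0014). Spi1 gave -0.89 ± 0.19 (adjusted p = 0.0054), Irf8 gave -0.77 ± 0.22 (adjusted p = 0.035) and Mef2c gave -0.71 ± 0.22 (adjusted p = 0.049).

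The cells of the uninjured libraries differed in depth, with medians of 2048 and 1470 UMIs in nerve against 4250 and 4712 UMIs in retina. Summed oligodendrocyte markers stood at 11920 and 8595 CPM in uninjured nerve against 70.0 and 70.4 CPM in uninjured retina. Without the other cell types Cebpa gave -0.88 and Spi1 -0.74 (limma adjusted p = 0.0073 and 0.027). Irf8 and Mef2c lost their calls there, at -0.61 and -0.41 (adjusted p = 0.098 and 0.29), and Mef2c then averaged 767 CPM in uninjured nerve against 672 CPM in uninjured retina. With each cell thinned to 1000 UMIs, 2.32% of genes were called and 1.68% were lower, and Cebpa stayed called at -0.91 (limma adjusted p = 0.017), whereas Spi1 gave -0.46 (adjusted p = 0.17), Irf8 -0.47 (adjusted p = 0.36) and Mef2c 0.29 (adjusted p = 0.54). edgeR on recovered counts called 2.6% of genes, 71 higher and 67 lower, and limma on log2 CPM called 3.32%, 119 higher and 57 lower. Under edgeR the median of all genes was 0.13 log2 units, and none of the 4 factors passed, with Cebpa at -1.31 (adjusted p = 0.094). Cebpa kept its limma call without any one library. Spi1 lost it without uninjured nerve library 2 (adjusted p = 0.051) or 4 (0.069), and Irf8 without uninjured retina library 6 (0.26) or uninjured nerve library 2 (0.18) or 4 (0.14). Mef2c lost it without any one of the 8 libraries, with adjusted p between 0.056 and 0.17. Mef2a, with -0.49 ± 0.21 (adjusted p = 0.15), changed its sign to 0.06 with thinned cells.

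Between injured tissues, 2 of the 8 factors were lower in nerve than in retina, against 13.5% of 5298 genes called by limma, 40 higher and 673 (12.7%) lower. Runx1 had 304 and 96.3 CPM in injured nerve against 386 and 370 CPM in injured retina, with a difference of -0.82 ± 0.17 ln units (adjusted p = 0.0050). Mef2a had 329 and 185 CPM in injured nerve against 483 and 515 CPM in injured retina, with -0.71 ± 0.21 ln units (adjusted p = 0.034). Neither factor overlapped between tissues, and the share of all genes without overlap was not counted. Median depth was 1078 and 2060.5 UMIs per cell in injured nerve against 12989 and 3853 UMIs in injured retina. With thinned cells 0.34% of genes passed, and the differences were -0.27 for Runx1 (adjusted p = 0.94) and -0.37 for Mef2a (adjusted p = 0.87). edgeR called 7.08% of genes, 201 higher and 174 lower, limma on log2 CPM called 0.529%, 7 higher and 21 lower, and neither called these 2 factors. Runx1 lost its call without the injured pool of samples 1 and 2 (adjusted p = 0.056) or injured nerve library 3 (0.062). Without the other cell types, where 14.2% of genes were lower, Runx1 gave -1.03 and Mef2a -1.18 (adjusted p = 0.00095 and 0.0020). Mef2a lost it without any one injured library (adjusted p = 0.070 to 0.21) or without uninjured nerve library 2 (0.051) or 4 (0.052).

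The cells fell into 8 clusters, which were built from the same genes, so that the values by class are descriptive. Microglia-like cells (65, led also by the early response gene Egr3 and the chemokine genes Ccl3 and Ccl4) came from uninjured libraries only. Their cluster held 74 cells before endothelial-like cells were set apart by their markers, and 4 of the 74 came from injured nerve library 3. Border macrophage-like cells (87, with Mrc1 and F13a1) lay mostly in the nerve, 44 of them in uninjured library 2. T-like cells (47, with Cd3e and Cd3d) came from injured retina except for 1. The oligodendrocyte-like cluster (90 cells) was led by Clu and Ptn, and all 12 oligodendrocyte markers were more frequent in it than elsewhere; Clu is also an astrocyte gene, and Gfap was seen in 40% of its cells. Clusters 0, 1 and 2 came almost wholly from nerve, cluster 3 (117 cells, led by Atp6v0c and Rnasek, with heat shock genes) came wholly from injured retina, and these 4 were left unnamed.

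**Figure D3:**
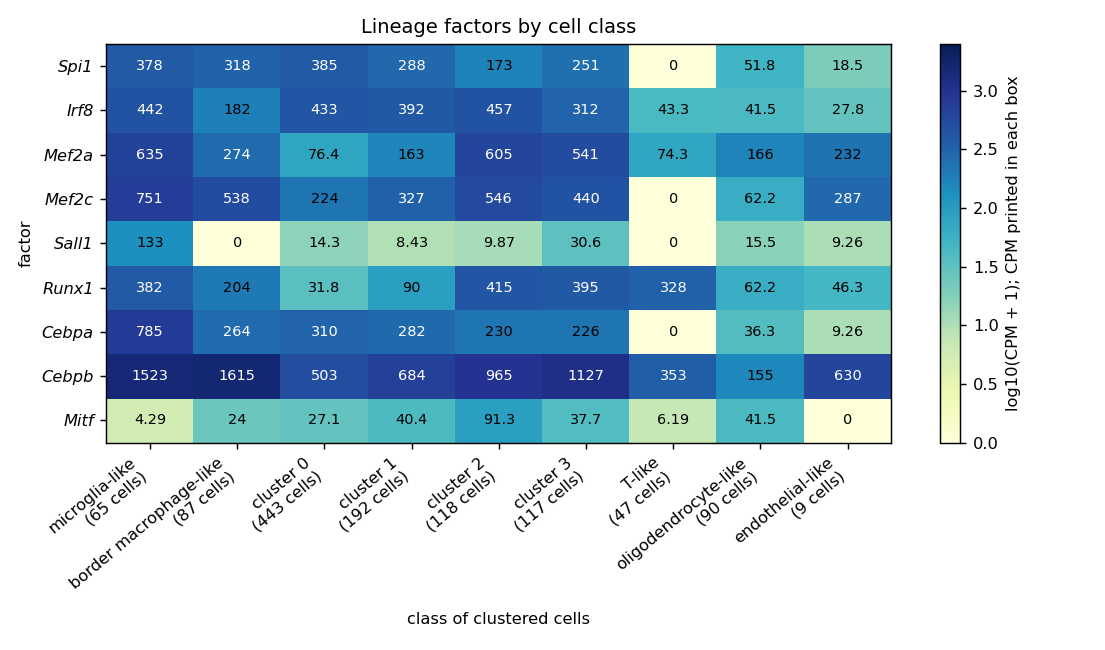
Level of each factor in CPM (printed in the boxes, shaded by log10 of CPM + 1) by class of clustered cells, with the number of cells under each class. Sall1 was at 133 CPM in microglia-like cells and at 0 in border macrophage-like cells, and T-like cells held 0 UMIs of Spi1, Mef2c, Sall1 and Cebpa.

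Spi1, Irf8 and Cebpa were low or unseen in T-like and oligodendrocyte-like cells. Spi1, Cebpa and Mef2c had 0 UMIs in 47 T-like cells, which allows a share of up to 6.38% of cells with a UMI. Runx1, a factor of T cells as well, had 328 CPM in T-like cells against 382 CPM in microglia-like cells, and Cebpb had 353 CPM against 1523 CPM. In oligodendrocyte-like cells Spi1 had 51.8 CPM, Irf8 41.5 CPM and Cebpa 36.3 CPM, against 378, 442 and 785 CPM in microglia-like cells. Mef2a had 166 CPM there, above the 76.4 CPM of cluster 0. A median of 6 of the 9 factors was seen per microglia-like cell, 5 per border macrophage-like cell, 1 per T-like cell and 0.5 per oligodendrocyte-like cell. These classes had median depths of 3631, 3930, 2422 and 1558 UMIs per cell in the same order.

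Sall1 was present in microglia-like cells and unseen in border macrophage-like cells. It had 133 CPM and was seen in 20 of 65 microglia-like cells, against 0 UMIs in 87 border macrophage-like cells, which allows a share of up to 3.45%. In microglia-like cells its level was 84.9 and 161 CPM in uninjured nerve against 115 and 194 CPM in uninjured retina, with overlap. Cluster 3 of injured retina had 25.1 CPM in the pool of samples 1 and 2 and 56.9 CPM in the pool of samples 3 and 4.

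Cebpa was also highest in microglia-like cells, with 785 CPM, against 264 CPM in border macrophage-like cells and 226 to 310 CPM in clusters 0 to 3. Within microglia-like cells it had 701 and 522 CPM in uninjured nerve against 988 and 598 CPM in uninjured retina, so that the 2 tissues overlapped within this class. Microglia-like cells made up 16.5% and 39.3% of uninjured nerve libraries against 80.6% and 100% of uninjured retina libraries. Injured retina had 0 cells in the microglia-like cluster, and its cluster 3 held 236 and 178 CPM of Cebpa. Cluster 3 nonetheless carried microglia markers about as often as the microglia-like cluster, with P2ry12 in 88.0% of cells against 87.7%, Tmem119 in 76.1% against 81.5%, Siglech in 87.2% against 80.0% and Cx3cr1 in 91.5% against 87.7%. Mrc1, the border macrophage marker, was in 1.71% of cluster 3 cells. The cluster was left unnamed because those markers were not among its leading genes, so that the absence of the microglia-like cluster does not show an absence of microglia. Cells of injured and uninjured retina fell into different clusters, and Cebpa could not be compared within 1 cluster.

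Mitf was low in microglia-like cells, with 4.29 CPM (1 UMI) in microglia-like cells, 24.0 CPM in border macrophage-like cells, 37.7 CPM in cluster 3 and 91.3 CPM in cluster 2. Cluster 1, led by Gpnmb and Lyz2, had 40.4 CPM. Oligodendrocyte-like cells had 41.5 CPM, from 8 UMIs in 7.78% of cells. Runx1 and Mef2a split the nerve clusters. Runx1 had 31.8 CPM in cluster 0, 90.0 CPM in cluster 1 and 415 CPM in cluster 2, and Mef2a had 76.4, 163 and 605 CPM in the same clusters. Spi1 did not follow this order, with 385, 288 and 173 CPM. Cluster 0 was shallow, with a median of 957 UMIs per cell, and cluster 1 was deep, with 21167 UMIs, and 188 of its 192 cells came from injured nerve library 3.

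The authors also split the cells by Rbpms, which encodes an RNA-binding protein and serves as a marker of retinal ganglion cells. The authors' Rbpms-positive class held 72 cells and the negative class 1096. Every cell with an Rbpms UMI was labelled positive and no other cell was, and a deeper cell is more likely to hold such a UMI. None of the 8 factors tested differed between positive and negative cells of the same library (limma with library as a block, 4 libraries), against 2 of 5298 genes called (0.0378%) and 283 at an unadjusted p under 0.05. edgeR called 7 genes (0.132%) and none of the 8 factors. The CPM values here are sums over the cells of all libraries, which mix tissues and injury and are not the values tested. Spi1 had 258 CPM in positive and 274 CPM in negative cells, Cebpa had 265 and 269 CPM, Irf8 had 333 and 353 CPM, and Runx1 had 178 and 181 CPM. Positive cells were deeper, with a median of 14751.5 UMIs against 2159 UMIs, and a median of 6 factors was seen in a positive cell against 3 in a negative one. Cebpb had the smallest p in the test within libraries, and over all libraries it had 1022 CPM in positive and 803 CPM in negative cells. Its difference was 0.45 ± 0.20 ln units (limma adjusted p = 0.88, unadjusted p = 0.028), and -0.04 log2 units (unadjusted p = 0.9) with edgeR. Of the 9 endothelial-like cells, 6 were Rbpms-positive.

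**Figure D4:**
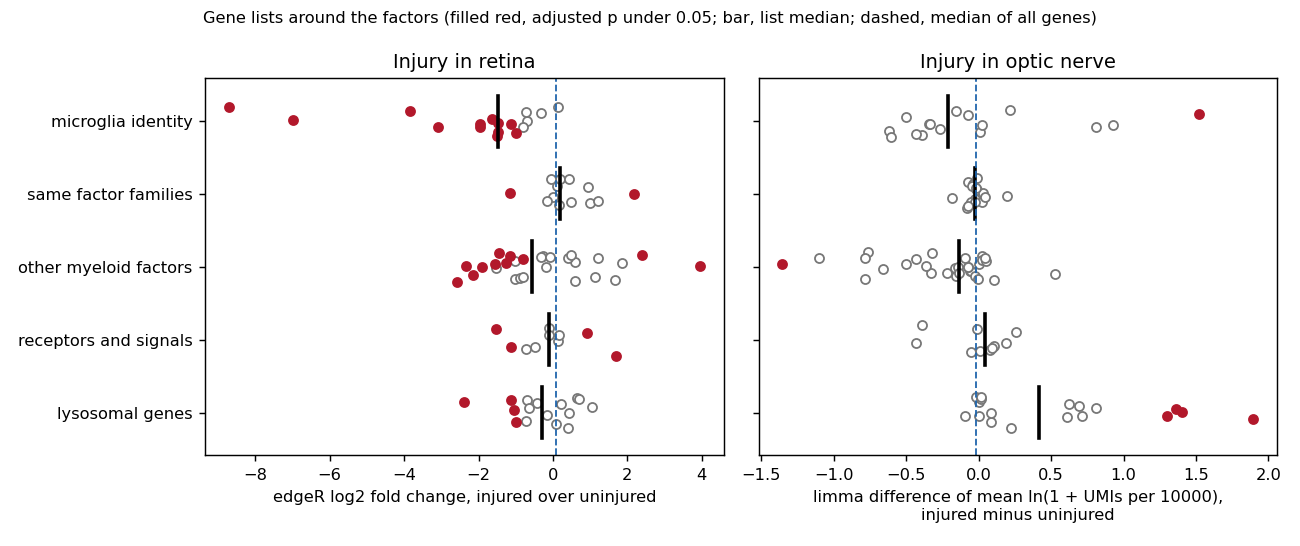
Injury effects of the genes tested in 5 lists around the factors, as log2 fold changes from edgeR in retina (left) and differences of mean ln values from limma in optic nerve (right); filled red points passed an adjusted p of 0.05, black bars are list medians and the dashed line is the median of all genes. In retina 12 of 17 microglia identity genes were lower, and in nerve 4 of 18 lysosomal genes were higher.

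Genes in 5 lists around the factors were read from the same fits, and whether they depend on the factors was not tested. Of 17 microglia identity genes, 12 fell in injured retina and none rose, where 9.72% of all genes fell. Their median log2 fold change was -1.47, against 0.07 for all genes. Olfml3 had 71.8 and 48.2 CPM in injured retina against 833 and 1073 CPM in uninjured retina (log2 fold change -3.86 ± 0.30, edgeR adjusted p = 3.16e-05). Gpr34, a lysophosphatidylserine receptor, gave -3.09 ± 0.27 (adjusted p = 6.67e-05). Fcrls had 1 and 0 UMIs in injured retina against 52 and 19 UMIs in uninjured retina, and the fructose transporter gene Slc2a5 had 1 and 0 UMIs against 10 and 10 UMIs. In nerve, where 0.566% of all genes passed, 1 of 16 did, the signalling adaptor Tyrobp, which rose by 1.52 ± 0.27 ln units (limma adjusted p = 0.011). Tyrobp lost its call without injured nerve library 3 (adjusted p = 0.19) or uninjured nerve library 2 (0.088) or 4 (0.052), with edgeR (0.058), thinned cells (0.22), log2 CPM (0.39) and no filter on low values (0.16).

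Among 28 other myeloid factors tested in retina, 9 fell and 2 rose, with a median of -0.56, beside 9.72% of all genes that fell and 9.99% that rose. The immediate early factors Fos and Junb gave -2.33 ± 0.30 and -2.14 ± 0.30 (edgeR adjusted p = 0.00047 and 0.00069). Klf2 gave -1.92 ± 0.28 (adjusted p = 0.0011), which was -1.65 (adjusted p = 0.059) without the injured pool of samples 1 and 2. Stat3, the cytokine-activated factor, rose by 2.40 ± 0.41 (adjusted p = 0.0022), with 259 and 351 CPM in injured retina against 42.0 and 88.0 CPM in uninjured retina. In nerve 1 of 31 passed, beside 0.566% of all genes, the AP-1 subunit gene Jun, with 606 and 741 CPM in injured nerve against 3083 and 3055 CPM in uninjured nerve (-1.35 ± 0.22 ln units, limma adjusted p = 0.0064). Its adjusted p was 0.068 without uninjured nerve library 2, 0.18 with thinned cells, 0.097 with log2 CPM and 0.098 with no filter.

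Relatives of the 9 factors mostly did not pass. Of 13 tested in retina 2 were called, beside 19.7% of all genes. Etv6, an ETS repressor, rose by 2.2 ± 0.61 on the log2 scale (edgeR adjusted p = 0.029) and Irf5, an inflammatory interferon regulatory factor, fell by 1.17 ± 0.34 on the log2 scale (adjusted p = 0.032). Etv6 lost its call without uninjured library 5 (adjusted p = 0.23) and with DESeq2 (0.10). Irf5 lost it without the injured pools of samples 1 and 2 (0.15) or 3 and 4 (0.091), or without uninjured library 5 (0.26) or 6 (0.065). Irf5 also lost it with DESeq2 (0.13), with no filter (0.18) and without the other cell types (0.077). In nerve 0 of 18 relatives passed in limma.

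Of 10 receptor and signal genes tested in retina, 2 rose and 2 fell, beside 9.99% and 9.72% of all genes. The cytokine receptor gene Csf2rb rose by 1.70 ± 0.48 and the interferon gamma receptor gene Ifngr1 by 0.93 ± 0.27 (edgeR adjusted p = 0.029 and 0.034). Its partner Ifngr2 fell by 1.54 ± 0.34 and the ligand gene Tgfb1 fell by 1.12 ± 0.32 on the log2 scale (adjusted p = 0.011 and 0.030). Csf1r, the receptor on which microglial survival depends, had 1457 and 1229 CPM in injured retina against 1212 and 1267 CPM in uninjured retina, and did not pass. Of the 4 that passed, Ifngr2 was called without any one library and under every other setting run. Csf2rb lost its call without uninjured library 5 (adjusted p = 0.27). Tgfb1 lost it without the injured pools of samples 1 and 2 (0.073) or 3 and 4 (0.16), or without uninjured library 5 (0.62). Ifngr1 lost it without those pools (0.16 and 0.088) or without uninjured library 6 (0.068). DESeq2 called none of Csf2rb (0.13), Ifngr1 (0.063) and Tgfb1 (0.12). limma did not call Csf2rb (0.14) or Ifngr1 (0.12), and edgeR with no filter did not call Ifngr1 (0.061) or Tgfb1 (0.16).

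The lysosomal genes, targets of the MiT/TFE family, differed between the 2 tissues in the direction of those that passed. In retina, where 16 were tested, 4 fell and none rose, beside 9.72% of all genes that fell. Hexa had 125 and 106 CPM in injured retina against 616 and 633 CPM in uninjured retina (log2 fold change -2.39 ± 0.27, edgeR adjusted p = 0.00018). Ctsd and Sqstm1 gave -1.06 and -1.01 (adjusted p = 0.021 and 0.028). Both lost their calls without the injured pool of samples 1 and 2 (adjusted p = 0.25 and 0.16) or of samples 3 and 4 (0.33 and 0.35), and with no filter (0.24 and 0.22). Sqstm1 lost it also without uninjured library 5 (0.45), with DESeq2 (0.055) and with limma (0.11).

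In nerve, where 0.566% of all genes passed, 4 of 18 lysosomal genes rose and none fell, the cathepsin genes Ctsd, Ctsb and Ctss and the tetraspanin gene Cd63. Ctsd had 5943 and 14797 CPM in injured nerve against 1275 and 2187 CPM in uninjured nerve (1.90 ± 0.29 ln units, limma adjusted p = 0.0040). Ctsb, Cd63 and Ctss gave 1.40, 1.36 and 1.3 ln units (adjusted p = 0.041 each). In the order Ctsd, Ctsb, Cd63 and Ctss, the adjusted p was 0.053, 0.53, 0.18 and 0.068 with thinned cells. It was 0.16, 0.48, 0.35 and 0.37 with log2 CPM, and 0.14, 0.27, 0.28 and 0.34 with no filter. edgeR called all but Ctss (0.098). Without injured nerve library 3 Ctsd gave 1.58 (adjusted p = 0.049), and Ctsb, Cd63 and Ctss gave adjusted p of 0.90, 0.44 and 0.36. Without uninjured nerve library 2 all 4 lost the call, with adjusted p of 0.068 for Ctsd, 0.20 for Ctsb and Cd63, and 0.28 for Ctss. Ctsb and Cd63 also lost it without uninjured nerve library 4 (0.16 and 0.24) or uninjured retina library 6 (0.057 each), and Ctsb without the retina pool of samples 1 and 2 (0.053) or uninjured retina library 5 (0.064). Summed oligodendrocyte markers stood at 6062 and 1224 CPM in injured nerve against 11920 and 8595 CPM in uninjured nerve. Without the other cell types Ctsd gave 1.61 and Cd63 1.53 (limma adjusted p = 0.0072 and 0.0078), and Ctsb and Ctss lost their calls at 1.20 and 0.88 (0.061 and 0.10). The interaction of injury and tissue called 6 of the 18 higher in nerve, beside 1.7% of all genes, among them Ctsd at 3.43 ± 0.41 and Hexa at 1.85 ± 0.36 (limma adjusted p = 0.00012 and 0.0070).

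The genes whose log2(CPM + 10) ran most like a factor over the 8 libraries are given as a description, since 8 libraries share depth and cell makeup by group. Cebpa ran most like Sft2d1 (Pearson r = 0.98), Mtmr2 (0.98) and Tcim (0.97). Spi1 ran most like Fes (0.96), and Irf8 like Ptms (0.95) and Exosc4 (0.95). Mef2c ran most like Cmtm7 (0.98), Mef2a like Fam91a1 (0.97), Runx1 like Msi2 (0.91), Cebpb like Cand1 (0.88) and Mitf like Vps11 (0.98). Of the 9 loci, 6 overlap other annotated genes. Irf8 overlaps Gm20388 on the same strand (214 UMIs in all), Cebpb overlaps Tmem189 (108 UMIs), Mef2a overlaps Lysmd4 and 2 further loci (22 UMIs), Runx1 overlaps Gm26626 (7 UMIs), Cebpa overlaps Gm45091 (1 UMI) and Mitf overlaps Gm15531 (0 UMIs). Gm20388 and the 2 further loci in Mef2a lie on the same strand as their factor, where reads in the overlap cannot be fully assigned. The other overlapping genes lie on the opposite strand. The genes lie at chr2:91082390-91115756 (Spi1), chr8:120736358-120756694 (Irf8), chr16:92601466-92826149 (Runx1), chr7:35119293-35121928 (Cebpa), chr2:167688915-167690418 (Cebpb), chr7:67231163-67372858 (Mef2a), chr13:83504034-83667080 (Mef2c), chr8:89027235-89044162 (Sall1) and chr6:97807052-98021349 (Mitf), in GRCm38 as annotated by GENCODE M21.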

How the data were processed

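Droplet 3′ single-cell libraries were sequenced, per the labels' protocols. The authors used bcl2fastq 2.17.1.14, Cell Ranger 1.3, mm10 and Seurat 4.0.3, per the submitters' processing notes, and kept cells with 200 to 6500 genes, per the series' design text. For retina cells the authors deposited UMI counts. For optic nerve cells they deposited natural log values, ln(1 + 10000 × UMIs / cell total), from which all 1374534 values above 0 gave whole counts within 0.01. The members and lists were chosen with earlier results of these data known.

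UMIs were summed per library. For the retina, injury was tested on counts with edgeR 4.0.16 (TMM, filterByExpr, without the stretch of entries empty in uninjured retina), and the other comparisons with limma 3.58.1 (trend) on mean ln values over 8 libraries, for 5298 genes with a UMI in both tissues and in at least 10% of cells. limma effects are differences of mean ln values, which are not log2 fold changes. Errors of effects are SEs, and calls had a Benjamini-Hochberg adjusted p under 0.05. Both tests were also run on simulated data, which did not model differences in cell makeup between groups. The outcome is not reported here, and no result rests on it. Rbpms classes were compared within libraries, in a fit blocked by library over the 4 that held 5 or more cells of both classes. DESeq2 1.42.0 was an alternative, as were thinning to 1000 UMIs (297 cells left out), no filters, and leaving out other cell types or each library. Clusters came from scanpy 1.11.5, by the Leiden method at resolution 0.5, and were named from at least 3 markers of a list among their 50 leading genes by fold; endothelial-like cells held 5 or more of 14 markers. All 9 factors were named, and from each list the 4 genes with the smallest p plus every gene that passed where up to 6 passed; genes that did not pass were left out of the text, apart from Csf1r, chosen after its values were seen. Some genes that the rule names are not reported here. Limits for a count of 0 use 3 counts, and intervals are exact at 95%.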

Additional observations from a re-analysis of the deposited data

Results flagged for a closer look

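The injury effect on Cebpa differed between optic nerve and retina, by 1.05 ± 0.26 ln units in the limma interaction test (adjusted p = 0.026). The injury difference of the mean ln value was 0.03 in nerve and -1.02 in retina. T-like cells, which held 0 Cebpa UMIs, made up 20.2% and 42.1% of the injured retina pools, and oligodendrocyte-like cells made up 9.59% and 6.60% of injured nerve libraries against 26.2% and 14.3% of uninjured ones. With T-like, oligodendrocyte-like and also endothelial-like cells left out, the interaction was 0.66 (adjusted p = 0.16). The mean ln value was then 0.68 in injured nerve and 0.77 in uninjured nerve, against 0.90 in injured retina and 1.66 in uninjured retina, so that the difference moved in both tissues.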

How the results depend on the processing

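No paired analysis was possible because the injured retina samples were pooled, so that numbers could not match samples between groups. For the Rbpms classes, limma without the replicate block called 0 genes (53 at an unadjusted p under 0.05), against 2 with the block, and changed no other call. Counts of genes called moved as follows. In retina DESeq2 called 341, against 653 with edgeR. With limma on log2 CPM the counts were 4 for injury in nerve, 40 for the interaction, 176 between uninjured and 28 between injured tissues. With edgeR on recovered counts they were 58, 97, 138 and 375 in the same order, and 7 for Rbpms. With thinned cells they were 3, 28, 123 and 18, and 1 for Rbpms. Without filters they were 1 for injury in nerve, 28 for the interaction and 440 between injured tissues. Without the other cell types they were 183 for the interaction and 13 for Rbpms. Leaving out 1 library gave 406 to 699 genes in retina, 7 to 67 in nerve, 86 to 541 for the interaction, 227 to 907 between uninjured tissues, 143 to 1085 between injured tissues and 1 for Rbpms.

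In all, 6 effects changed sign, and the cause was not tested. In retina these were Mef2a with limma (-0.10) and, without uninjured library 5, Spi1 (0.27) and Cebpb (0.58), which without library 6 were -1.13 and -0.77. Between uninjured tissues these were Mef2a (0.058) and Mef2c (0.29) with thinned cells, and between Rbpms classes Cebpb with edgeR (-0.041). Of 260 effects refitted without 1 library, 191 kept their direction and side of the threshold and 63 lost their call. Of 228 under other settings, 155 kept both and 65 lost their call. Depth limited Sall1 and Mitf most, with 130 and 302 UMIs in all.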
